A study of Homo sapiens with 12 samples.

Results

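The 30 genes described here are known p53 targets, named in a fixed list by symbol and found by their Ensembl IDs among the 60617 gene IDs of 2 count tables. All 30 were matched, each to 1 ID. They were followed by RNA sequencing in 769-P, an established human cell line from a clear cell renal carcinoma. The 12 libraries form 4 groups of 3. One group is labelled siDRAIC, for a small interfering RNA (siRNA) named after the long non-coding RNA DRAIC, and has controls labelled siDRAIC-NC. The other is labelled sihnRNPA2B1, for an siRNA named after the RNA-binding protein hnRNPA2B1, and has controls labelled sihnRNPA2B1-NC. All 4 groups share the cell line, grown in RPMI1640 with fetal bovine serum, and total RNA as the material. The siRNA sequences, their dose, the time to harvest and the meaning of the letters NC do not appear among the sources used here. Because a single cell line was used, nothing below says how other renal carcinoma cells behave. Nothing states that the 3 replicates of a group came from different cultures, so every p-value measures only the spread between these libraries, which may be technical.

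The protein p53 is a transcription factor that accumulates when DNA is damaged or cells are otherwise stressed, and it switches on genes that stop the cell cycle, repair DNA, adjust metabolism or start apoptosis. Several of its targets, MDM2 among them, act back on p53 and lower it, so the pathway limits itself. Some targets also answer to other factors: GDF15, SESN2 and GADD45A are known to be induced by ATF4, the factor of the integrated stress response, in which protein synthesis is held back under amino acid or endoplasmic reticulum stress. In kidney cancer MDM2 and MDM4 are known restraints on the pathway.

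The p53 protein binds a repeated 10-base motif, the p53 half-site, usually as a close pair. The 250 bases before the RefSeq start (GRCh38.p14 table) were searched on both strands in the 24 of the 30 genes with an entry. A perfect half-site was found in 3 of the 24, FDXR, AEN and RPS27L, and in 5.57% of all 35116 promoters. A pair separated by at most 13 bases was found in 0 of the 24 and in 0.0256% of all promoters. The promoters of AEN, a nuclease of apoptosis, and FDXR, the mitochondrial ferredoxin reductase, are shown. They were chosen because both genes fell after hnRNPA2B1 siRNA and hold the same 10 letters. Capitals mark the half-site, 34 to 25 bases before the RefSeq start of AEN and 11 to 2 bases before that of FDXR.
AEN (chr15:88621090-88621339, plus strand): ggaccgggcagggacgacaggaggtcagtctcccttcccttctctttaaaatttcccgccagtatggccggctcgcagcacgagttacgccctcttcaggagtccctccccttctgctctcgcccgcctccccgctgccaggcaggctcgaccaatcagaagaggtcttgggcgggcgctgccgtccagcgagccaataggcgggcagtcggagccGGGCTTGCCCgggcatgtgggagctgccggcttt
FDXR (chr17:74872995-74873244, minus strand): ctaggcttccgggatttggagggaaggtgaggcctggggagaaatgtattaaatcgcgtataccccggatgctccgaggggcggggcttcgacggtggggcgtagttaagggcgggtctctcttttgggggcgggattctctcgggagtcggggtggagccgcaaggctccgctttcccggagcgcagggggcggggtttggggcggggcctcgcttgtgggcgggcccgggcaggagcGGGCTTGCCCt
The half-site of RPS27L, AGACAAGCCC, lies 59 to 50 bases before its start on chromosome 15. The ATF4 and CHOP motif TGATGNAAN, read on both strands with no overlap with a half-site, was in 3.13% of promoters and in 1 of the 24, that of PLK3 (TGATGTAAG, 133 to 125 bases before the start, chromosome 1). These matches describe letters in a short window and nothing else; p53 sites often lie in introns or further upstream.

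Library totals ran from 30798303 to 42760528 counts, and 3 counts in a library correspond to 0.0702 to 0.0974 CPM, a gene's counts scaled to one common library total. Replicates of the DRAIC experiment differed more than those of the hnRNPA2B1 experiment: the chi-square per degree of freedom between 2 replicates was 30.3 to 139.8 in siDRAIC and siDRAIC-NC and 4.94 to 16.9 in sihnRNPA2B1 and sihnRNPA2B1-NC. Replicate 1 of siDRAIC-NC stood apart, at 139.8 and 122 against the other two of its group, which gave 30.3 between themselves. DRAIC RNA was near the floor, with 9 summed counts in the libraries labelled siDRAIC and 5 in siDRAIC-NC (ratio 1.76, exact 95% interval 0.531 to 6.70, counting error only), so the counts do not check that label. HNRNPA2B1 had 291, 307 and 274 CPM in sihnRNPA2B1 libraries, against 428, 396 and 435 CPM in sihnRNPA2B1-NC libraries (log2 fold change -0.56, SE 0.05, edgeR adjusted p = 2.16e-09). The 8 kidney and renal carcinoma markers, PAX8 among them, were found in all 4 groups. Each group lacked at least 1 marker of blood, endothelial, fibroblast and liver cells, but other markers of these lists had counts. The highest sums in a library were 356 CPM for liver, 7.22 CPM for blood and 0.876 CPM for endothelial markers, all in siDRAIC-NC. For fibroblast markers the highest sum was 18.2 CPM, in siDRAIC.

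Levels between genes were compared as CPM per kilobase of merged exons. CDKN1A, the p21 inhibitor of cyclin-dependent kinases, led in the libraries labelled siDRAIC at 243, in siDRAIC-NC at 266 and in sihnRNPA2B1 at 461 CPM per kilobase. In sihnRNPA2B1-NC it came just below GDF15, a secreted stress cytokine, with levels of 493 for CDKN1A and 498 for GDF15 CPM per kilobase, a gap smaller than the spread of either gene between libraries. GADD45A, a stress sensor that slows the cell cycle and takes part in DNA repair, stood at 36.2 in siDRAIC and 31.4 in siDRAIC-NC, against 289.6 in sihnRNPA2B1 and 409.6 in sihnRNPA2B1-NC. TNFRSF10B, the death receptor DR5, and PHLDA3, an inhibitor of AKT, stood at 76.1 and 68.6 in siDRAIC, 69.99 and 77.7 in siDRAIC-NC, 111 and 84.5 in sihnRNPA2B1 and 127 and 97.9 in sihnRNPA2B1-NC, in the same unit. Among the tested members the low end was held by SESN1, a sestrin that restrains mTORC1, at 2.78 in siDRAIC, 2.42 in sihnRNPA2B1 and 2.60 in sihnRNPA2B1-NC, and in siDRAIC-NC by TIGAR, a phosphatase that slows glycolysis, at 2.06. SPATA18, a factor of mitochondrial quality control, had 0 counts in every library of siDRAIC, sihnRNPA2B1 and sihnRNPA2B1-NC and 2, 0 and 4 counts in siDRAIC-NC. It fell below the filter on low counts in each test, so 29 of the 30 genes were tested.

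**Figure D1:**
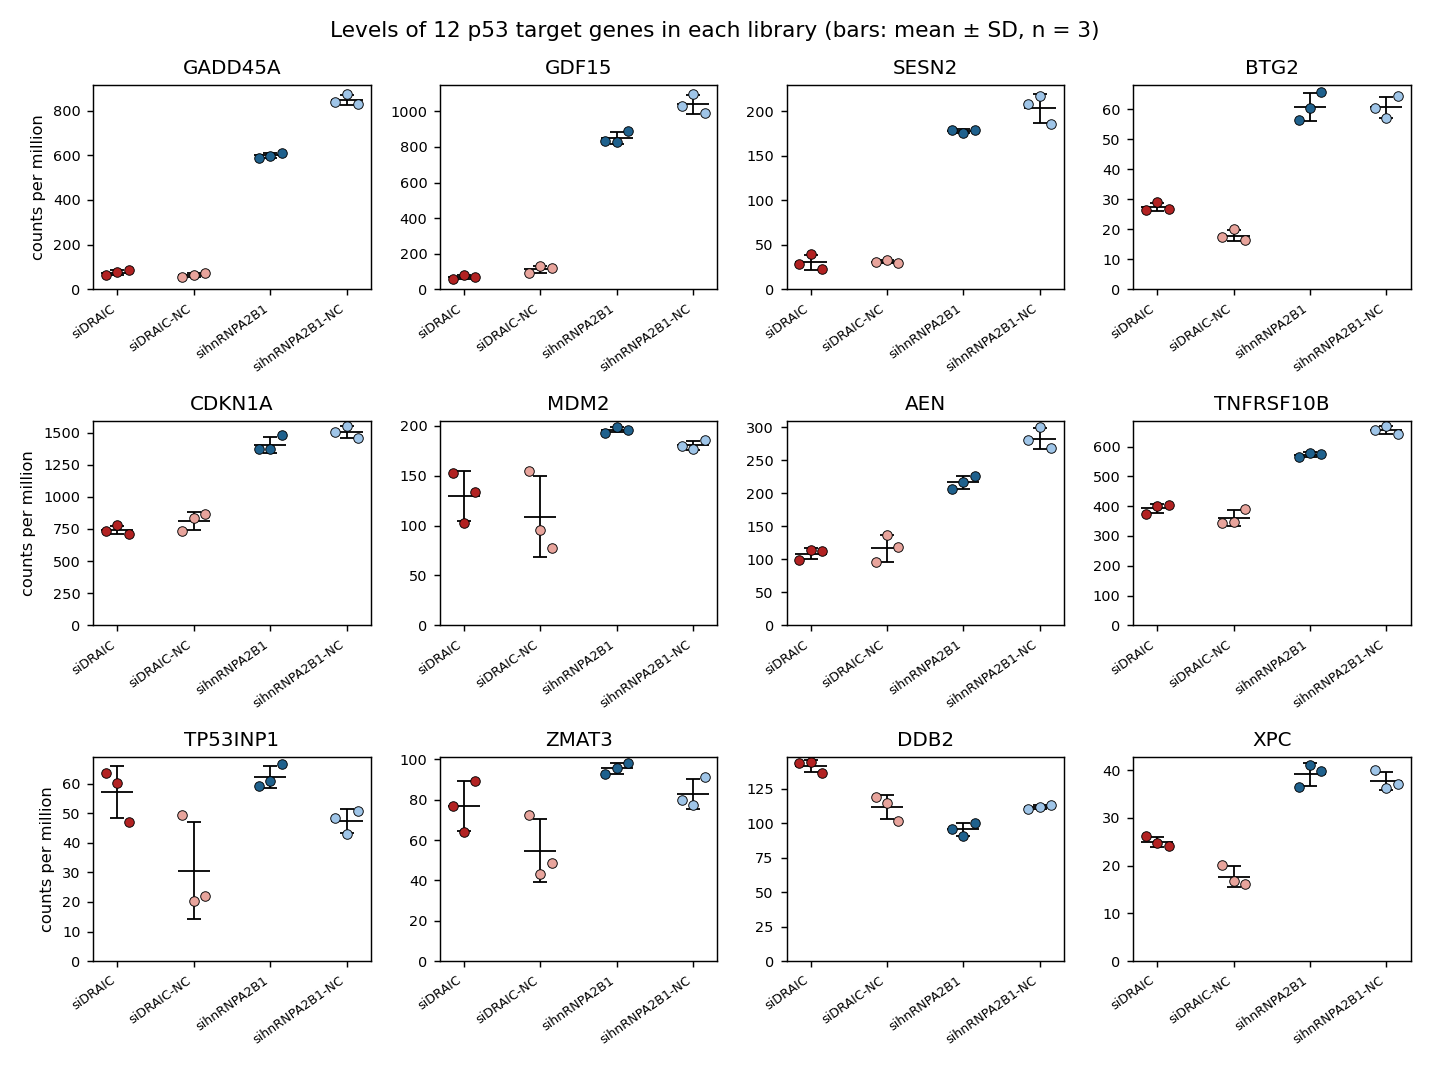
Level in CPM (vertical axis, from 0) of 12 p53 target genes in each of the 12 libraries; points are libraries, the long bar is the mean and the short bars are 1 SD (n = 3 per group). GADD45A, GDF15 and SESN2 sat several-fold lower in both groups of the DRAIC experiment than in both groups of the hnRNPA2B1 experiment.

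The first comparison asks what hnRNPA2B1 siRNA did to the p53 targets. It lowered more of them than it raised: 12 fell, 4 rose and 13 of the 29 tested did not pass (edgeR, adjusted p below 0.05). That is 55.2% of the tested members, where 30.4% of all 15710 tested genes passed, 15.1% up and 15.4% down. The largest fall was that of GADD45A, to 0.691 of the control level, and the largest rise that of TP53INP1, to 1.29 of it. POLH, TIGAR, EDA2R and MDM2 were higher in all 3 treated libraries than in all 3 controls without passing. The median log2 fold change was -0.13 over the 29 members and 0.01 over all tested genes. The libraries of the groups did not overlap for 19 of the 29, 8 higher and 11 lower in sihnRNPA2B1, where 42.0% of all tested genes did not overlap, 23.7% higher and 18.3% lower. The summed level of the 30 genes was 5330 to 5619 CPM in sihnRNPA2B1 and 6042 to 6298 CPM in sihnRNPA2B1-NC. Sums of this kind mainly follow the genes of highest CPM, here CDKN1A, GDF15, GADD45A and TNFRSF10B.

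Coordinates are those of the GENCODE 29 annotation of GRCh38. Of the 4 tested arrest genes, 3 fell and 0 rose, where 15.4% of all tested genes fell and 15.1% rose. Among these 3, GADD45A (ENSG00000116717, chr1:67685061-67688338, plus strand) moved most. It had 589.9, 599 and 609 CPM in sihnRNPA2B1, against 838, 874 and 830.4 CPM in sihnRNPA2B1-NC (log2 fold change -0.53, SE 0.05, edgeR adjusted p = 1.44e-09). Every treated library lay below every control library, with a gap far wider than the spread within either group. PLK3 (ENSG00000173846, chr1:44800225-44805990, plus strand), a kinase of the stress checkpoints, had 41.1, 38.9 and 39.1 CPM in sihnRNPA2B1, against 46.04, 48.4 and 44.6 CPM in sihnRNPA2B1-NC (log2 fold change -0.26, SE 0.07, edgeR adjusted p = 0.00456), again without overlap. CDKN1A (ENSG00000124762, chr6:36676460-36687339, plus strand) had 1369.7, 1369.8 and 1479 CPM in sihnRNPA2B1, against 1505, 1549 and 1459 CPM in sihnRNPA2B1-NC (log2 fold change -0.13, SE 0.05, edgeR adjusted p = 0.0428). Its groups overlapped, since sihnRNPA2B1 replicate 3 lay above sihnRNPA2B1-NC replicate 3. The fourth arrest gene, BTG2, an antiproliferative cofactor of mRNA decay, had 60.7 ± 4.68 CPM in sihnRNPA2B1 and 60.6 ± 3.56 CPM in sihnRNPA2B1-NC (SD, n = 3 each; log2 fold change -0.03, SE 0.07, edgeR adjusted p = 0.795). CDKN1A shares exon bases with DINOL, a non-coding gene on the opposite strand, and use of strand in counting is not given, so the reads of the pair cannot be told apart.

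Of the 4 tested genes that act back on p53, 2 rose and 0 fell, where 15.1% of all tested genes rose and 15.4% fell. With so few genes, the 0 says little about the group. FBXO22 (ENSG00000167196, chr15:75903859-75942510, plus strand), part of a ubiquitin ligase, had 91.6, 92.03 and 95.04 CPM in sihnRNPA2B1, against 80.1, 73.9 and 79.6 CPM in sihnRNPA2B1-NC (log2 fold change 0.22, SE 0.06, edgeR adjusted p = 0.00403). PPM1D (ENSG00000170836, chr17:60600183-60666280, plus strand), the WIP1 phosphatase that removes activating phosphates from p53 and its kinases, had 39.01, 34.4 and 36.04 CPM in sihnRNPA2B1, against 31.4, 29.7 and 32.03 CPM in sihnRNPA2B1-NC (log2 fold change 0.20, SE 0.07, edgeR adjusted p = 0.0381). Both rose, and neither pair of groups overlapped. MDM2 (ENSG00000135679, chr12:68808176-68850686, plus strand), the ubiquitin ligase that marks p53 for degradation, had 193, 198 and 196 CPM in sihnRNPA2B1, against 179.5, 177 and 185 CPM in sihnRNPA2B1-NC (log2 fold change 0.09, SE 0.05, edgeR adjusted p = 0.219). Its treated libraries all lay above the controls, but the difference did not pass the test. CCNG1, cyclin G1, had 115 ± 5.38 CPM in sihnRNPA2B1 and 105 ± 7.05 CPM in sihnRNPA2B1-NC (SD, n = 3 each; log2 fold change 0.10, SE 0.06, edgeR adjusted p = 0.203). In all, 13 of the 30 members share exon bases with other annotated genes, which leaves their levels uncertain: CDKN1A, MDM2, FAS (with ACTA2), TNFRSF10B, SESN1, XPC, TP53I3, PLK3, PHLDA3, TIGAR, FBXO22 (with NRG4), POLH and PIDD1 (with RPLP2). For MDM2, PHLDA3 and TIGAR part of the overlap lies on the same strand.

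Of the 10 tested genes of death receptors and apoptosis, 5 fell and 2 rose, where 15.4% of all tested genes fell and 15.1% rose. AEN (ENSG00000181026, chr15:88621296-88632282, plus strand), whose promoter is printed above, had 206, 217 and 226 CPM in sihnRNPA2B1, against 280.3, 299.9 and 269 CPM in sihnRNPA2B1-NC (log2 fold change -0.42, SE 0.06, edgeR adjusted p = 1.31e-06). TNFRSF10B (ENSG00000120889, chromosome 8) had 564, 580.3 and 577 CPM in sihnRNPA2B1, against 656, 670.2 and 643 CPM in sihnRNPA2B1-NC (log2 fold change -0.23, SE 0.05, edgeR adjusted p = 0.000576). FAS (ENSG00000026103, chr10:88990582-89015785, plus strand), the CD95 death receptor, also fell, with 40.95, 40.6 and 46.2 CPM in sihnRNPA2B1, against 52.96, 46.3 and 59.1 CPM in sihnRNPA2B1-NC (log2 fold change -0.34, SE 0.08, edgeR adjusted p = 0.00105). None of these groups overlapped, though for FAS the highest treated library and the lowest control lay side by side. PHLDA3 (ENSG00000174307, chr1:201464383-201469237, minus strand) had 261, 258 and 277 CPM in sihnRNPA2B1, against 305, 332 and 284 CPM in sihnRNPA2B1-NC (log2 fold change -0.25, SE 0.06, edgeR adjusted p = 0.00170). TP53I3 (ENSG00000115129, chr2:24077433-24085861, minus strand), a quinone reductase also known as PIG3, was low, at 11.1, 9.53 and 10.4 CPM in sihnRNPA2B1, against 11.3, 12.5 and 13.3 CPM in sihnRNPA2B1-NC (log2 fold change -0.30, SE 0.11, edgeR adjusted p = 0.0348).

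The apoptosis genes that rose were TP53INP1 and ZMAT3. TP53INP1 (ENSG00000164938, chromosome 8), a p53 cofactor that favours apoptosis and autophagy, had 59.3, 60.99 and 66.5 CPM in sihnRNPA2B1, against 48.3, 43.01 and 50.8 CPM in sihnRNPA2B1-NC (log2 fold change 0.36, SE 0.07, edgeR adjusted p = 0.000163). ZMAT3 (ENSG00000172667, chr3:179017223-179072279, minus strand), an RNA-binding protein that acts in splicing and mRNA stability, had 92.9, 95.6 and 98.4 CPM in sihnRNPA2B1, against 79.6, 77.4 and 91.4 CPM in sihnRNPA2B1-NC (log2 fold change 0.18, SE 0.06, edgeR adjusted p = 0.0305). TP53INP1 and ZMAT3 were each higher in all 3 treated libraries than in all 3 controls. TRIAP1, a small inhibitor of apoptosis, had 51.2 ± 3.65 CPM in sihnRNPA2B1 and 54.6 ± 3.24 CPM in sihnRNPA2B1-NC (SD, n = 3 each; log2 fold change -0.13, SE 0.07, edgeR adjusted p = 0.171). The other two of the group, EDA2R, a receptor of the TNF family, and PIDD1, a scaffold of caspase-2, had log2 fold changes of 0.09 and -0.13 and did not pass.

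In DNA repair and nucleotide supply, 1 of 4 genes changed, a share near the 30.4% of all tested genes. DDB2 (ENSG00000134574, chr11:47214465-47239240, plus strand), which finds ultraviolet lesions for nucleotide excision repair, had 96.02, 90.8 and 100.1 CPM in sihnRNPA2B1, against 110.4, 112 and 113 CPM in sihnRNPA2B1-NC (log2 fold change -0.26, SE 0.06, edgeR adjusted p = 0.000898). XPC, its partner in lesion recognition, had 39.1 ± 2.41 CPM in sihnRNPA2B1 and 37.8 ± 1.93 CPM in sihnRNPA2B1-NC (SD, n = 3 each; log2 fold change 0.02, SE 0.07, edgeR adjusted p = 0.866). POLH, the polymerase that copies past such lesions, and RRM2B, the p53-induced ribonucleotide reductase subunit, had log2 fold changes of 0.03 and 0.01.

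Of the 7 tested genes of stress signalling and metabolism, 3 fell and 0 rose, where 15.4% of all tested genes fell and 15.1% rose. GDF15 (ENSG00000130513, chr19:18374731-18389176, plus strand) had 834, 829 and 891 CPM in sihnRNPA2B1, against 1030.0, 1096 and 993 CPM in sihnRNPA2B1-NC (log2 fold change -0.32, SE 0.05, edgeR adjusted p = 2.02e-05). SESN2 (ENSG00000130766, chr1:28259527-28282491, plus strand), a leucine sensor that restrains mTORC1, had 179, 176 and 179 CPM in sihnRNPA2B1, against 208, 217 and 186 CPM in sihnRNPA2B1-NC (log2 fold change -0.23, SE 0.06, edgeR adjusted p = 0.00374). Its treated libraries were close together and all lower than the controls. FDXR (ENSG00000161513, chr17:74862497-74873031, minus strand) had 41.5, 39.04 and 45.1 CPM in sihnRNPA2B1, against 51.8, 48.2 and 46.3 CPM in sihnRNPA2B1-NC (log2 fold change -0.25, SE 0.07, edgeR adjusted p = 0.00796). SUSD6, a membrane protein that binds ubiquitin ligases, had 39.3 ± 2.42 CPM in sihnRNPA2B1 and 43.4 ± 2.37 CPM in sihnRNPA2B1-NC (SD, n = 3 each; log2 fold change -0.18, SE 0.07, edgeR adjusted p = 0.0622). TIGAR, RPS27L, a ribosomal protein related to RPS27, and SESN1 had log2 fold changes of 0.09, -0.11 and -0.13, none of which passed.

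These calls use the spread of the 6 libraries of the hnRNPA2B1 experiment. When all 12 libraries shared 1 estimate of the spread, 1 member passed in place of 16, GADD45A, with an edgeR adjusted p of 0.0466 (over its 13 alternatives 7.23e-27 to 0.0466), and the count over all genes was 283 in place of 4781. A total of 11 of the 16 calls stood when each library was left out in turn. CDKN1A lost its call without sihnRNPA2B1 replicates 1 and 2 and sihnRNPA2B1-NC replicates 1 and 2 in turn (edgeR adjusted p = 0.183, 0.215, 0.128 and 0.129), and PPM1D without sihnRNPA2B1 replicates 1 and 3 and sihnRNPA2B1-NC replicates 1 and 2 in turn (edgeR adjusted p = 0.200, 0.0783, 0.0969 and 0.0868). TP53I3 lost it without sihnRNPA2B1 replicates 2 and 3 and sihnRNPA2B1-NC replicates 2 and 3 in turn (edgeR adjusted p = 0.177, 0.0680, 0.0757 and 0.0872), ZMAT3 without sihnRNPA2B1 replicates 2 and 3 and sihnRNPA2B1-NC replicates 1 and 2 in turn (edgeR adjusted p = 0.0881, 0.129, 0.171 and 0.0937) and FDXR without sihnRNPA2B1 replicate 2 and sihnRNPA2B1-NC replicate 1 in turn (edgeR adjusted p = 0.0834 and 0.0689). Taking every alternative, the adjusted p of these 5 genes ranged from 0.00487 to 0.607 for CDKN1A, 0.0280 to 0.480 for PPM1D, 0.0287 to 0.386 for TP53I3, 0.000896 to 0.632 for ZMAT3 and 0.00104 to 0.464 for FDXR. The summed level of 6 blood and immune markers was 0.442 to 0.822 CPM in sihnRNPA2B1 and 1.37 to 1.53 CPM in sihnRNPA2B1-NC, with CD3E at 0 counts in both, and that of 4 hepatocyte markers was 29.1 to 31.8 CPM in sihnRNPA2B1 and 52.5 to 56.7 CPM in sihnRNPA2B1-NC, with TTR at 0 counts in both and SERPINA1 called lower. Their part in the changes above was not tested. Only 1 of the 6 blood and immune markers and 2 of the 4 hepatocyte markers passed the filter on low counts. All libraries are labelled as 769-P cells. In bulk libraries, fewer cells with a marker's RNA and less of it per cell cannot be told apart.

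**Figure D2:**
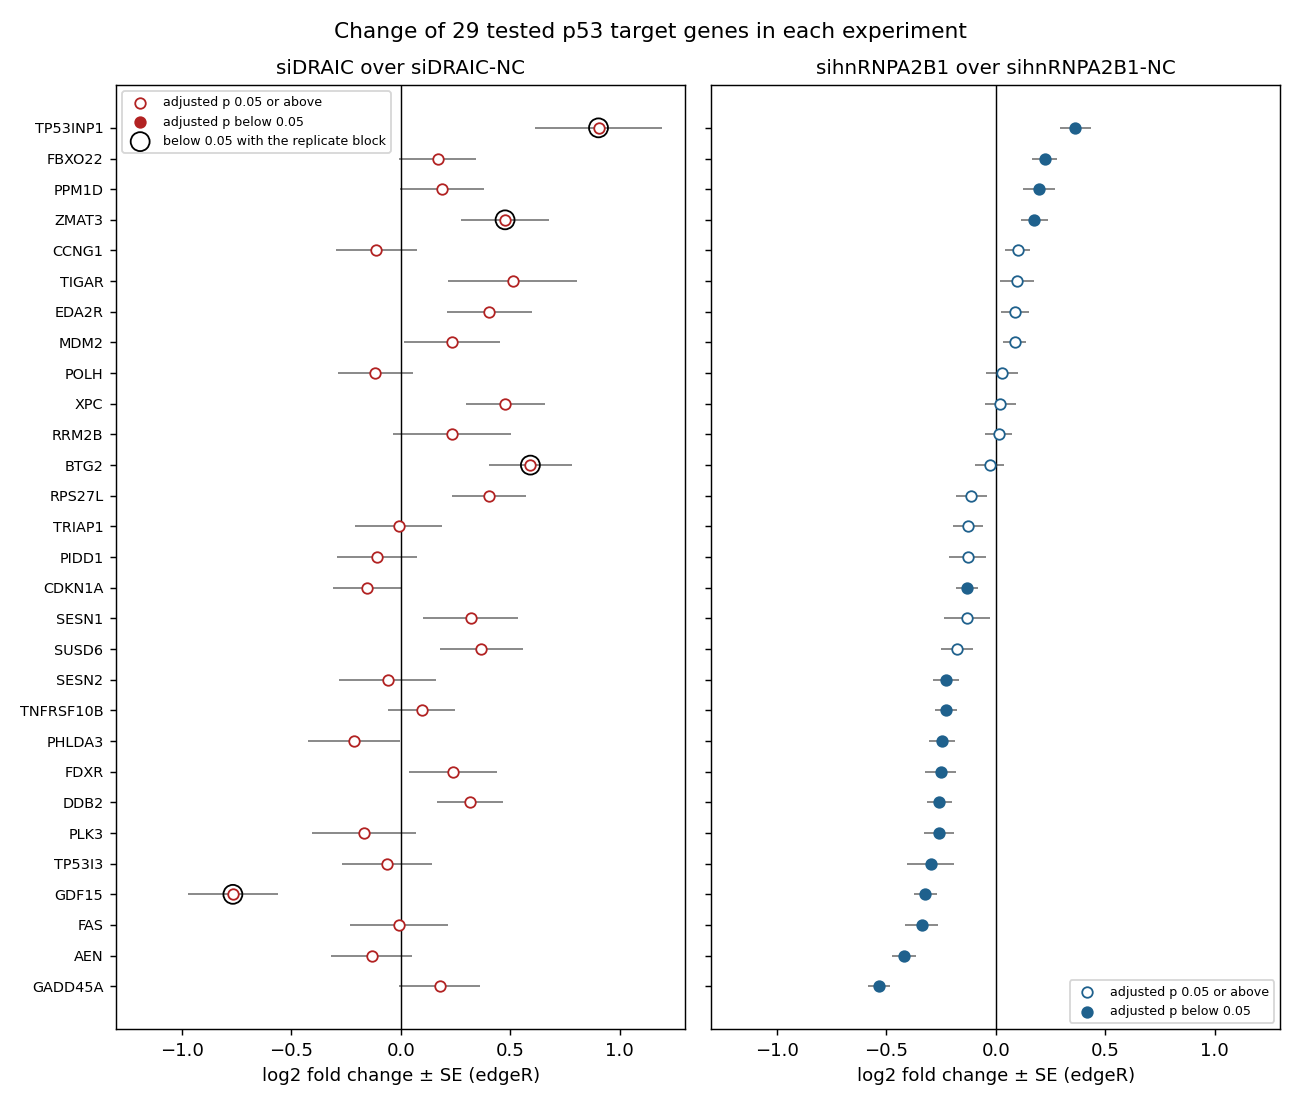
Log2 fold change with its SE (horizontal axis, edgeR) of the 29 tested p53 target genes, libraries labelled siDRAIC over siDRAIC-NC at the left and sihnRNPA2B1 over sihnRNPA2B1-NC at the right, in the order of the right panel. Filled points have an adjusted p below 0.05: 16 at the right and 0 at the left, where the bars are wider and black rings mark the 4 genes that passed once replicate numbers were paired.

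The second comparison asks the same of the DRAIC siRNA, with the limit that DRAIC RNA was too low to show whether it fell in these libraries. In the libraries labelled siDRAIC, 0 of the 29 members passed the test against siDRAIC-NC (edgeR), where 0.713% of all 15986 tested genes passed, 0.582% up and 0.131% down. At an unadjusted p below 0.05 there were 6 of the 29 members and 1713 of all genes. DESeq2 called 1 member, GDF15, and limma-voom 0. The labels state no pairing of the libraries. Same-numbered libraries of this experiment deviated together (correlations 0.489, 0.227 and 0.277, against -0.409 to 0.103 for unlike numbers). Their numbers were therefore read as pairs from these same counts. With the number as a block, 4 members passed, 3 up and 1 down, where 8.78% of all tested genes passed, 5.20% up and 3.58% down, 1404 genes in place of 114. The members' median log2 fold change was 0.18, and that of all tested genes was -0.00. The groups did not overlap for 7 members, 6 higher and 1 lower in siDRAIC, where 15.6% of all tested genes did not overlap, 9.75% higher and 5.86% lower. The summed level of the 30 genes was 2820 to 2921 CPM in siDRAIC and 2798 to 2822 CPM in siDRAIC-NC.

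The member with the smallest p was GDF15, with 56.5, 79.00 and 69.3 CPM in siDRAIC, against 92.1, 129 and 121 CPM in siDRAIC-NC (log2 fold change -0.77, SE 0.21, edgeR adjusted p = 0.139). The 3 treated libraries lay below the 3 controls. With the block GDF15 fell (log2 fold change -0.76, SE 0.15, edgeR adjusted p = 2.91e-05; over its 13 alternatives 2.91e-05 to 0.490). BTG2 (ENSG00000159388, chr1:203305491-203309602, plus strand) had 26.5, 28.9 and 26.7 CPM in siDRAIC, against 17.3, 19.99 and 16.3 CPM in siDRAIC-NC (log2 fold change 0.59, SE 0.19, edgeR adjusted p = 0.226), again without overlap. It rose with the block (log2 fold change 0.60, SE 0.18, edgeR adjusted p = 0.0137; over its alternatives 0.0137 to 0.788). TP53INP1 had 63.6, 60.3 and 47.1 CPM in siDRAIC, against 49.3, 20.3 and 21.96 CPM in siDRAIC-NC (log2 fold change 0.90, SE 0.29, edgeR adjusted p = 0.241). The groups overlapped through siDRAIC-NC replicate 1, the library that stood apart. TP53INP1 rose with the block (log2 fold change 0.99, SE 0.17, edgeR adjusted p = 3.86e-07; over its alternatives 3.86e-07 to 0.778). ZMAT3 had 77.2, 64.2 and 89.4 CPM in siDRAIC, against 72.4, 43.01 and 48.8 CPM in siDRAIC-NC (log2 fold change 0.48, SE 0.20, edgeR adjusted p = 0.397), and also overlapped only through siDRAIC-NC replicate 1 and siDRAIC replicate 2. It rose with the block (log2 fold change 0.49, SE 0.16, edgeR adjusted p = 0.0249; over its alternatives 0.0249 to 0.914).

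The other members gave no call with or without the block. XPC (ENSG00000154767, chr3:14145147-14178783, minus strand) had 26.2, 24.7 and 24.1 CPM in siDRAIC, against 20.2, 16.7 and 16.2 CPM in siDRAIC-NC (log2 fold change 0.48, SE 0.18, edgeR adjusted p = 0.344; 0.0721 with the block and 0.0401 to 0.882 over its alternatives). Its groups did not overlap. CDKN1A had 734, 779 and 713 CPM in siDRAIC, against 731, 832 and 868 CPM in siDRAIC-NC (log2 fold change -0.15, SE 0.16, edgeR adjusted p = 0.790), with overlapping groups. MDM2 had 152, 102 and 134 CPM in siDRAIC, against 154, 95.4 and 77.1 CPM in siDRAIC-NC (log2 fold change 0.23, SE 0.22, edgeR adjusted p = 0.766). The MDM2 controls spread more widely than the treated libraries, with the highest value in siDRAIC-NC replicate 1. DDB2 had 143, 144 and 136 CPM in siDRAIC, against 119, 115 and 102 CPM in siDRAIC-NC (log2 fold change 0.32, SE 0.15, edgeR adjusted p = 0.486), and was higher in all 3 treated libraries. GADD45A had 63.6, 76.3 and 84.9 CPM in siDRAIC, against 57.8, 65.03 and 72.4 CPM in siDRAIC-NC (log2 fold change 0.18, SE 0.19, edgeR adjusted p = 0.795), with overlap. EDA2R, RPS27L and SUSD6 were also higher in all 3 libraries labelled siDRAIC than in all 3 controls and did not pass, with log2 fold changes of 0.41, 0.40 and 0.37. By role, log2 fold changes ran from -0.11 to 0.23 in feedback on p53, from -0.17 to 0.59 in arrest, from -0.12 to 0.48 in repair, from -0.21 to 0.90 in apoptosis and from -0.77 to 0.51 in stress signalling and metabolism.

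SPATA18 had 0 summed counts in siDRAIC and 6 in siDRAIC-NC, a ratio of 0 with an exact 95% upper limit of 0.833 that covers counting error only. The count of members passing was 3 without siDRAIC-NC replicate 1 (ZMAT3, TP53INP1 and GDF15) and 0 without each of the other 5 libraries. The 6 blood and immune markers summed to 1.04 to 1.302 CPM in siDRAIC and 4.41 to 7.22 CPM in siDRAIC-NC, with CD3E at 0 counts in both, and the 5 fibroblast markers to 10.5 to 18.2 CPM in siDRAIC and 2.65 to 6.59 CPM in siDRAIC-NC, with COL1A2 at 0 in both. The 4 hepatocyte markers summed to 170.4 to 199.4 CPM in siDRAIC and 206 to 356 CPM in siDRAIC-NC, with TTR at 0 in both. Their part in the values above was not tested.

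Whether the members answered differently in the DRAIC and hnRNPA2B1 experiments was tested on all 12 libraries, as the change in siDRAIC minus the change in sihnRNPA2B1. Of 29 members 0 differed (edgeR), where 0.211% of all 17091 tested genes did, 0.105% in each direction; DESeq2 called 1, DDB2, and limma-voom 0. At an unadjusted p below 0.05 there were 7 members, against 1561 of all genes. GADD45A differed by 0.67 (SE 0.18, edgeR adjusted p = 0.186) and DDB2 by 0.54 (SE 0.14, edgeR adjusted p = 0.175). BTG2 differed by 0.58 (SE 0.18, edgeR adjusted p = 0.264) and GDF15 by -0.49 (SE 0.22, edgeR adjusted p = 0.518). The differences of RPS27L, SUSD6 and XPC, the others under that unadjusted p, were 0.48, 0.51 and 0.42. With replicate numbers as a block GADD45A passed (0.68, SE 0.13, edgeR adjusted p = 0.0173; over its alternatives 0.0156 to 0.452), where 1.51% of all genes passed, 0.673% with a positive difference. Without siDRAIC-NC replicate 1 the count was 3 (TP53INP1, DDB2 and GDF15).

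The widest differences among these genes lay between the control groups. In siDRAIC-NC against sihnRNPA2B1-NC, 23 of the 29 members passed, 19 lower and 4 higher (edgeR), where 51.6% of all 17091 tested genes passed, 25.0% lower and 26.6% higher. The members' median log2 fold change was -0.73 and that of all tested genes 0.02. The groups did not overlap for 23 members, 19 lower and 4 higher, where 57.8% of all genes did not, 28.6% lower and 29.2% higher. All 4 arrest genes were lower in siDRAIC-NC, and GADD45A differed most, with 57.8, 65.03 and 72.4 CPM in siDRAIC-NC, against 838, 874 and 830.4 CPM in sihnRNPA2B1-NC (log2 fold change -3.68, SE 0.14, edgeR adjusted p = 1.47e-10), which is 12.9-fold lower in siDRAIC-NC. GDF15 had 92.1, 129 and 121 CPM in siDRAIC-NC, against 1030.0, 1096 and 993 CPM in sihnRNPA2B1-NC (log2 fold change -3.16, SE 0.17, edgeR adjusted p = 2.62e-09), 8.97-fold lower in siDRAIC-NC. SESN2 had 31.4, 32.5 and 29.97 CPM in siDRAIC-NC, against 208, 217 and 186 CPM in sihnRNPA2B1-NC (log2 fold change -2.69, SE 0.17, edgeR adjusted p = 1.03e-08), 6.44-fold lower in siDRAIC-NC. These 3 are the members named above as also induced by ATF4, a choice made with earlier results of these data known. A part of ATF4 in their difference was not tested.

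BTG2 had 17.3, 19.99 and 16.3 CPM in siDRAIC-NC, against 60.3, 57.1 and 64.2 CPM in sihnRNPA2B1-NC (log2 fold change -1.74, SE 0.13, edgeR adjusted p = 5.81e-08). CDKN1A, at 810.3 ± 71.2 CPM in siDRAIC-NC and 1505 ± 44.8 CPM in sihnRNPA2B1-NC (SD, n = 3 each), was 1.83-fold lower in siDRAIC-NC (log2 fold change -0.87, SE 0.11, edgeR adjusted p = 9.83e-06). MDM2, at 109 ± 40.3 CPM in siDRAIC-NC and 181 ± 4.34 CPM in sihnRNPA2B1-NC (SD, n = 3 each), was 1.66-fold lower in siDRAIC-NC (log2 fold change -0.73, SE 0.18, edgeR adjusted p = 0.00295). Against that direction ran PIDD1, at 53.2, 67.1 and 57.1 CPM in siDRAIC-NC, against 23.4, 22.2 and 27.1 CPM in sihnRNPA2B1-NC (log2 fold change 1.31, SE 0.14, edgeR adjusted p = 2.16e-06). CCNG1 ran the same way as PIDD1, at 266, 159 and 163 CPM in siDRAIC-NC, against 103, 99.6 and 113 CPM in sihnRNPA2B1-NC (log2 fold change 0.89, SE 0.14, edgeR adjusted p = 8.88e-05). TP53I3 and POLH were also higher in siDRAIC-NC, with log2 fold changes of 0.57 and 0.33. DDB2 had 119, 115 and 102 CPM in siDRAIC-NC, against 110.4, 112 and 113 CPM in sihnRNPA2B1-NC, and did not pass (log2 fold change 0.01, SE 0.10, edgeR adjusted p = 0.921). FDXR, RPS27L, SESN1, PHLDA3 and FAS did not pass either, with log2 fold changes of 0.29, 0.01, -0.23, -0.31 and -0.40. The members between these, all called lower in siDRAIC-NC, ran from -0.32 for SUSD6 to -1.59 for TIGAR.

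Culture, preparation and sequencing of the experiments cannot be told apart from their control treatments, since the labels give no batch and each control belongs to 1 experiment. The siDRAIC-NC libraries also serve as controls for siDRAIC above, and the sihnRNPA2B1-NC libraries for sihnRNPA2B1, so the comparisons share them. Leaving out each library in turn gave 19 to 24 called members. The call of SUSD6 was lost in 10 of these 12 fits (edgeR adjusted p over all its alternatives 0.0226 to 0.140). TP53INP1 lost its call without siDRAIC-NC replicates 2 and 3 and sihnRNPA2B1-NC replicates 1 and 3 in turn (edgeR adjusted p = 0.121, 0.119, 0.0619 and 0.0751) and FBXO22 without siDRAIC-NC replicate 3 (edgeR adjusted p = 0.0554), with adjusted p over all alternatives of 6.49e-06 to 0.121 for TP53INP1 and 0.000769 to 0.0554 for FBXO22. POLH lost its call without siDRAIC-NC replicates 2 and 3 and sihnRNPA2B1-NC replicates 1, 2 and 3 in turn, and with no low-count filter. HNRNPA2B1 RNA was itself 0.90 higher on the log2 scale in siDRAIC-NC (SE 0.12, edgeR adjusted p = 1.93e-05), and the blood and immune markers summed to 4.41 to 7.22 CPM in siDRAIC-NC and 1.37 to 1.53 CPM in sihnRNPA2B1-NC, the hepatocyte markers to 206 to 356 CPM in siDRAIC-NC and 52.5 to 56.7 CPM in sihnRNPA2B1-NC. The 8 kidney and renal carcinoma markers summed to 3186 to 3711 CPM in siDRAIC-NC and 1964 to 2030.3 CPM in sihnRNPA2B1-NC, and 6 of the 8 were called higher in siDRAIC-NC. Their part in these values was not tested.

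**Figure D3:**
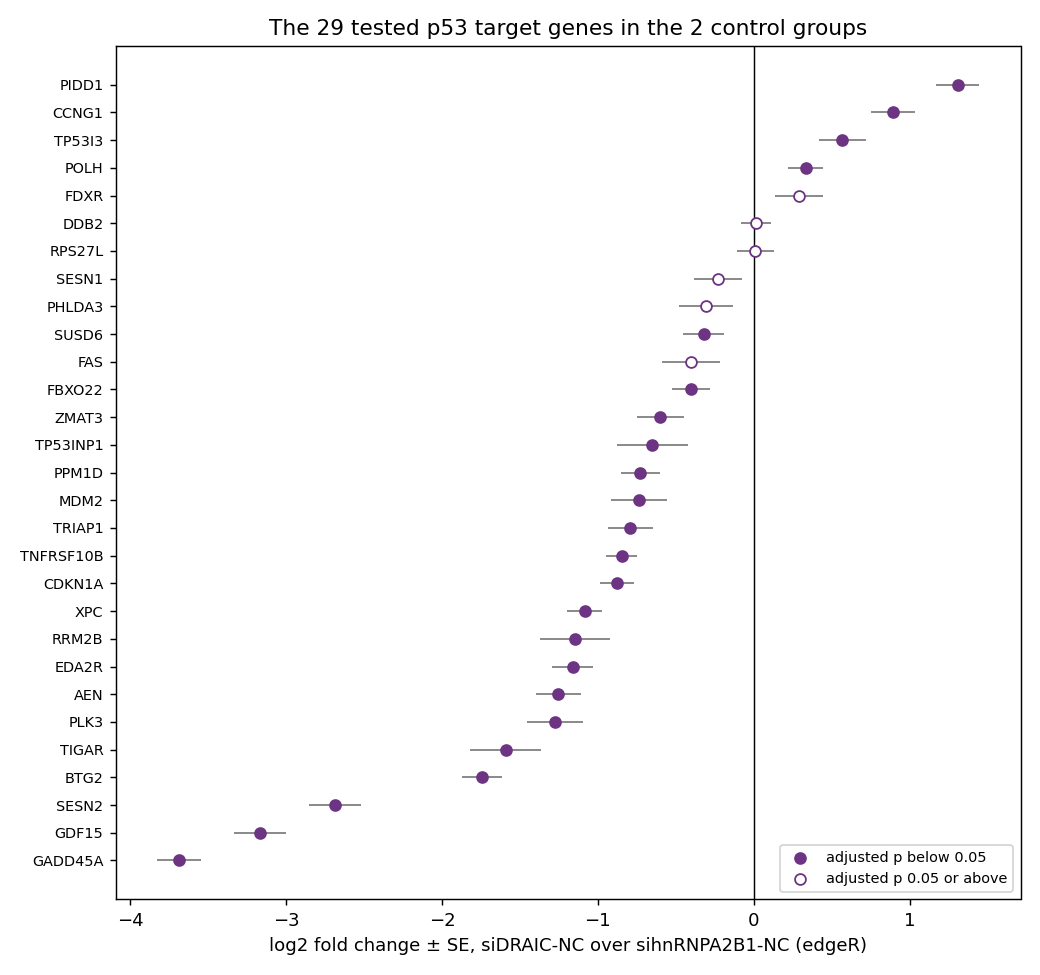
Log2 fold change with its SE of the 29 tested p53 target genes, siDRAIC-NC over sihnRNPA2B1-NC (horizontal axis, edgeR); filled points have an adjusted p below 0.05. The 4 filled points at the right of 0 are PIDD1, CCNG1, TP53I3 and POLH, and GADD45A, GDF15 and SESN2 lie farthest to the left.

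Genes around the members in the pathway were counted from 4 lists. Regulators of p53 showed 4 rises and 4 falls among 22 tested after hnRNPA2B1 siRNA, 36.4%, where 30.4% of all genes passed, and 0 of 22 in siDRAIC (edgeR; 1 at an unadjusted p below 0.05, 0 with DESeq2 and limma-voom, 1 with the block). MDM4, an inhibitor of p53 related to MDM2, had log2 fold changes of -0.19 in siDRAIC and -0.05 in sihnRNPA2B1, neither past the test, and was lower in siDRAIC-NC than in sihnRNPA2B1-NC (log2 fold change -0.74, SE 0.12, edgeR adjusted p = 9.73e-05). Called after hnRNPA2B1 siRNA were TP53BP1, a repair scaffold that binds p53 (log2 fold change 0.39, SE 0.07, edgeR adjusted p = 5.12e-05), RCHY1, a ubiquitin ligase for p53 (log2 fold change -0.36, SE 0.06, edgeR adjusted p = 5.61e-05), ATM, the kinase that signals DNA breaks (log2 fold change 0.25, SE 0.08, edgeR adjusted p = 0.0115), and the acetyltransferase KAT5 (log2 fold change -0.27, SE 0.08, edgeR adjusted p = 0.0124). TP73, a relative of p53 singled out after its values were seen, had a larger estimate at a far lower level, with 0.763, 0.457 and 0.130 CPM in sihnRNPA2B1, against 0.325, 0 and 0.0278 CPM in sihnRNPA2B1-NC (log2 fold change 1.99, SE 0.76, edgeR adjusted p = 0.0473), and its groups overlapped. ATM lost its call without sihnRNPA2B1 replicate 1 and sihnRNPA2B1-NC replicate 1 in turn (edgeR adjusted p = 0.0763 and 0.0959) and KAT5 without sihnRNPA2B1 replicate 1 and sihnRNPA2B1-NC replicate 2 in turn (edgeR adjusted p = 0.0547 and 0.0636), and their adjusted p over every setting was 0.00103 to 0.825 for ATM and 0.00296 to 0.484 for KAT5.

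A second list held 32 further p53 targets. After hnRNPA2B1 siRNA 7 of 29 tested rose and 9 fell, 55.2%, where 30.4% of all tested genes passed. In siDRAIC 1 of 30 fell, where 0.713% of all genes passed and 0.131% fell. With the block 2 rose and 5 fell, where 8.78% of all genes passed, 5.20% up and 3.58% down. IGFBP3, a secreted binder of insulin-like growth factors, had 44.7, 43.2 and 47.7 CPM in sihnRNPA2B1, against 18.5, 17.02 and 17.9 CPM in sihnRNPA2B1-NC, a 2.48-fold rise (log2 fold change 1.31, SE 0.08, edgeR adjusted p = 1.10e-13). CD82, a tetraspanin known as a metastasis suppressor, had 2.67, 2.62 and 3.01 CPM in sihnRNPA2B1, against 7.99, 8.64 and 8.03 CPM in sihnRNPA2B1-NC (log2 fold change -1.60, SE 0.14, edgeR adjusted p = 1.15e-09). It is also the further target that fell in siDRAIC, with 8.70, 10.9 and 12.5 CPM in siDRAIC, against 21.2, 41.2 and 63.3 CPM in siDRAIC-NC (log2 fold change -2.01, SE 0.37, edgeR adjusted p = 0.0493). CD82 no longer passed in siDRAIC without siDRAIC replicates 1, 2 and 3 and siDRAIC-NC replicates 2 and 3 in turn (edgeR adjusted p = 0.0642, 0.324, 0.138, 0.238 and 0.112), with an adjusted p of 6.46e-22 to 0.324 over its alternatives. LIF, a cytokine, fell (log2 fold change -0.52, SE 0.05, edgeR adjusted p = 8.74e-09) and PERP, a membrane protein of cell adhesion and apoptosis, rose (log2 fold change 0.43, SE 0.06, edgeR adjusted p = 3.24e-06) after hnRNPA2B1 siRNA. Between the controls 4 of 31 were higher and 14 lower in siDRAIC-NC, where 51.6% of all genes passed, 26.6% higher and 25.0% lower.

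Genes that p53 is known to repress through CDKN1A and the DREAM complex drive mitosis. After hnRNPA2B1 siRNA 10 of 23 tested fell and 0 rose (43.5%), where 30.4% of all tested genes passed and 15.4% fell, with a median log2 fold change of -0.17, against 0.01 over all genes. The mitotic kinase AURKB (log2 fold change -0.62, SE 0.06, edgeR adjusted p = 7.65e-09) fell, as did BIRC5, which is survivin (log2 fold change -0.59, SE 0.06, edgeR adjusted p = 1.85e-08), the transcription factor FOXM1 (log2 fold change -0.40, SE 0.06, edgeR adjusted p = 1.13e-05) and the checkpoint target CDC20 (log2 fold change -0.35, SE 0.06, edgeR adjusted p = 1.97e-05). In siDRAIC 0 of 24 passed (edgeR; 4 at an unadjusted p below 0.05, 0 with DESeq2 and limma-voom), with 21 estimates below 0 and a median of -0.27; the block gave 5 falls, where 3.58% of all genes fell with the block, and the fit without siDRAIC-NC replicate 1 also gave 5. Between the controls 16 of 24 were higher in siDRAIC-NC and 0 lower, where 51.6% of all genes passed and 26.6% were higher, with a median of 0.69. The summed level of the list was 2476 to 2946 CPM in siDRAIC, 3196 to 3434 CPM in siDRAIC-NC, 1774 to 1899 CPM in sihnRNPA2B1 and 2076 to 2115 CPM in sihnRNPA2B1-NC.

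Targets of ATF4 and CHOP, factors of the integrated stress response, were counted because several members answer to ATF4 as well. Between the controls 20 of 23 were lower and 1 higher in siDRAIC-NC, where 51.6% of all tested genes passed and 25.0% were lower, with a median log2 fold change of -2.32, which is further below 0 than the -0.73 of the p53 targets; the summed level was 2006 to 2505 CPM in siDRAIC-NC and 7754 to 8420 CPM in sihnRNPA2B1-NC. Their part in the members' difference between the controls was not tested. After hnRNPA2B1 siRNA 4 of 23 rose and 7 fell (47.8%), where 30.4% of all genes passed, with a median of 0.01. In siDRAIC 1 of 23 fell, where 0.713% of all genes passed and 0.131% fell. With the block 1 rose and 5 fell, where 8.78% of all genes passed, 5.20% up and 3.58% down. Among those that fell after hnRNPA2B1 siRNA were CEBPB (log2 fold change -0.41, SE 0.06, edgeR adjusted p = 7.22e-06), PPP1R15A, which encodes GADD34 (log2 fold change -0.33, SE 0.05, edgeR adjusted p = 1.13e-05), the amino acid transporter subunit SLC3A2 (log2 fold change -0.30, SE 0.05, edgeR adjusted p = 7.97e-05) and ATF4 itself (log2 fold change -0.28, SE 0.05, edgeR adjusted p = 8.01e-05). The gene that fell in siDRAIC was TRIB3, a pseudokinase induced by CHOP (log2 fold change -0.87, SE 0.18, edgeR adjusted p = 0.0462). Its call was lost without siDRAIC replicates 1, 2 and 3 and siDRAIC-NC replicates 2 and 3 in turn (edgeR adjusted p = 0.118, 0.190, 0.170, 0.218 and 0.238), with an adjusted p of 5.51e-07 to 0.238 over its alternatives. The changes in siDRAIC and sihnRNPA2B1 differed for 1 of 23, PSAT1, an enzyme of serine synthesis (-0.78, SE 0.14, edgeR adjusted p = 0.0287), and the count was 0 without each of 8 of the 12 libraries in turn. With all 12 libraries in 1 fit, 0 regulators, 2 further p53 targets, 1 gene repressed through CDKN1A and DREAM and 0 targets of ATF4 and CHOP passed after hnRNPA2B1 siRNA.

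**Figure D4:**
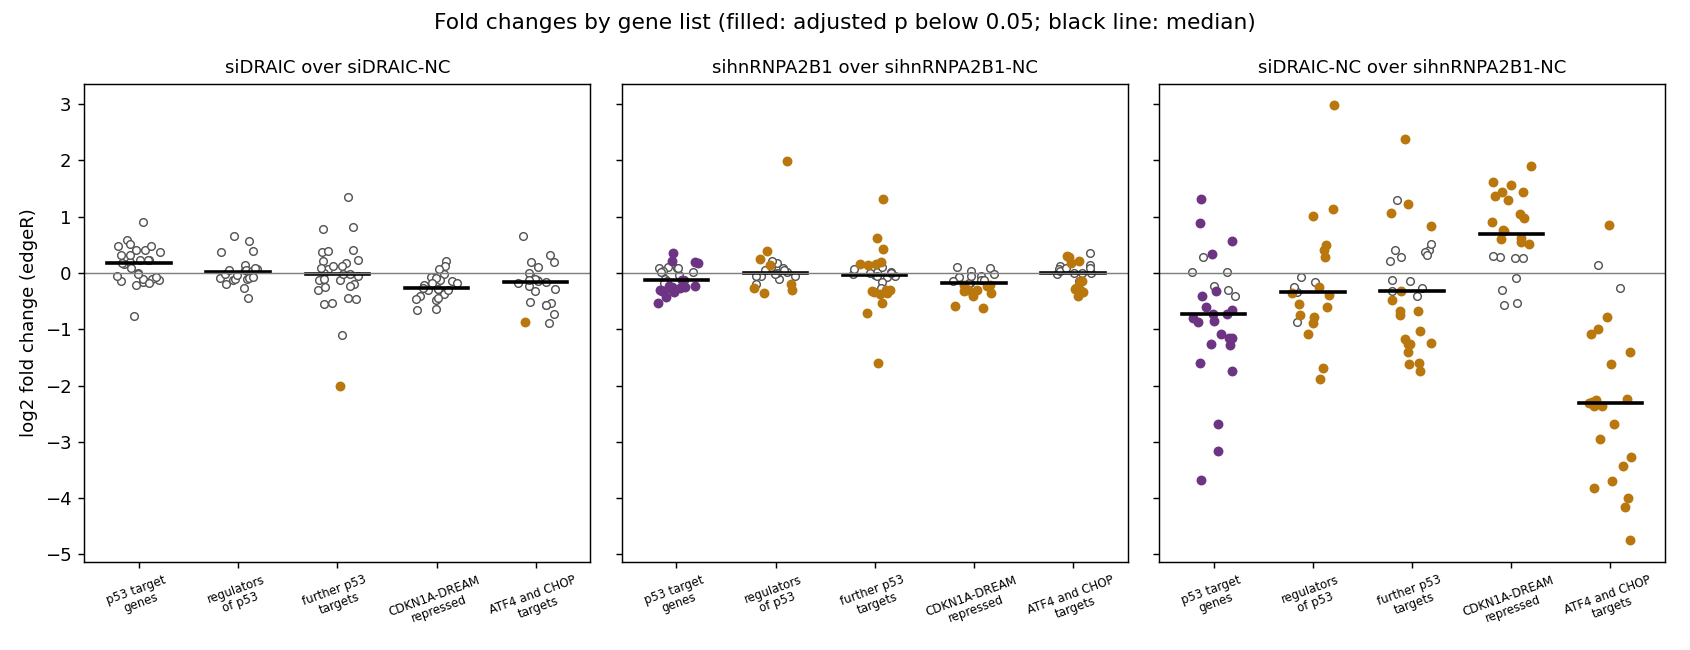
Log2 fold change (vertical axis, edgeR) of every tested gene of 5 lists, spread sideways for legibility, in siDRAIC over siDRAIC-NC, sihnRNPA2B1 over sihnRNPA2B1-NC and siDRAIC-NC over sihnRNPA2B1-NC; filled points have an adjusted p below 0.05 and black lines are medians. At the right the median of the p53 targets lies at -0.73, that of the ATF4 and CHOP targets at -2.32 and that of the genes repressed through CDKN1A and DREAM at 0.69.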

How the data were processed

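RNA of 769-P cells was extracted with RNAiso Plus and sequenced from TruSeq libraries, per the labels' protocols. The deposited values are raw counts per Ensembl gene in 2 tables of 6 libraries, with 60617 IDs, of which 60261 had a symbol in the annotation used here. The submitters' processing notes name fastp 0.23.2, STAR 2.7.10a, StringTie, DESeq2 and hg38. The sources used here do not give the program that counted the reads, its annotation or its strand setting. Totals of 30798303 to 42760528 counts per library set the precision, and intervals on counts cover counting error only.

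The deposited counts were tested with edgeR 4.0.16 in R 4.3.3 (TMM scaling, robust quasi-likelihood, filterByExpr with a minimum count of 10, Benjamini-Hochberg adjustment over all tested genes, threshold 0.05). Each siRNA was tested within its own table; the difference of the changes and the comparison of the controls used all 12 libraries joined by gene ID. Levels are CPM, and levels between genes are CPM per kilobase of merged GENCODE 29 exons. SEs were derived from the log2 fold change and its F value. Other settings tried were DESeq2 1.42.0, limma-voom (limma 3.58.1), RLE scaling, keeping all genes with counts, keeping genes at 1 CPM or more in at least 3 libraries, blocking on replicate number, fitting all 12 libraries together, and leaving out each library. The main edgeR fits were tested on simulated data with known changes and the same set spread between libraries for every gene. The other settings and the unequal spread of the experiments were not simulated.

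Same-numbered siDRAIC and siDRAIC-NC libraries deviated together from their group means (correlations 0.489, 0.227 and 0.277), so their numbers were read as pairs, from the data and not from the labels; those of the hnRNPA2B1 experiment did not. Full values are given for members called in an experiment, for CDKN1A and MDM2, and for up to 4 further members with the smallest p per experiment; of the other lists MDM4 and up to 4 called genes per list and experiment are named, and 1 regulator is not reported here. The members given in full between the controls were chosen after their values were seen. The members, lists and tests were chosen with earlier results of these data known. Promoters are from the RefSeq table of GRCh38.p14, with entries for 24 of the 30 genes.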

Additional observations from a re-analysis of the deposited data

How the results depend on the processing

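In the libraries labelled siDRAIC, 0 p53 targets passed with edgeR, and the count was 1 with DESeq2 (GDF15), 2 with no low-count filter (TP53INP1 and GDF15), 4 with the replicate block, 4 with all 12 libraries in 1 fit (BTG2, XPC, TP53INP1 and GDF15) and 0 to 3 with each library left out. After hnRNPA2B1 siRNA the count was 16, 1 with all 12 libraries in 1 fit, 12 to 17 with each library left out, 13 with no low-count filter and 16 with the other scaling, filter and tools. The difference of the changes gave 0, 1 with DESeq2 (DDB2), 1 with no low-count filter, 1 with the replicate block (GADD45A) and 0 to 3 with each library left out. The controls gave 23, and 19 to 26 over all alternatives. The cause of these moves was not tested. Numbers of the hnRNPA2B1 experiment do not pair its libraries (correlations -0.0117, -0.0242 and -0.0456); with them as a replicate block 13 targets and 4414 of all genes passed, in place of 16 and 4781.

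Over all genes, 114 passed in siDRAIC, against 392 with DESeq2, 73 with limma-voom, 520 with no low-count filter, 61 with the filter of 1 CPM, 1404 with the block, 665 with all 12 libraries and 9 to 1035 with each library left out (1035 without siDRAIC-NC replicate 1). The difference gave 36, against 194 with DESeq2, 263 with no filter, 258 with the block and 9 to 349 with each library left out. After hnRNPA2B1 siRNA 4781 passed, 283 with all 12 libraries.

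Of 1398 single-gene values under an alternative, 1259 kept direction and call, 91 lost the call, 29 gained it and 19 turned sign. They cover 22 of the 30 members, with selected other genes within each experiment. For the difference of the changes they cover only its members at an unadjusted p below 0.05 and TP53INP1. Sign turns outside them are not counted. In the difference PHLDA3 turned in several fits, and CDKN1A and MDM2 without siDRAIC-NC replicate 3. RRM2B turned after hnRNPA2B1 siRNA and RPS27L between the controls. None of the genes that turned sign was called in that comparison. In siDRAIC, FAS gave 0.0028 and TRIAP1 0.0034 with the filter of 1 CPM. With each library left out, log2 fold changes ran from -0.29 to 0.14 for FAS, -0.16 to 0.14 for TRIAP1, -0.24 to 0.11 for CCNG1, -0.20 to 0.048 for TP53I3, -0.39 to 0.0466 for PLK3 and -0.34 to 0.11 for SESN2; after hnRNPA2B1 siRNA from -0.0154 to 0.0715 for XPC and -0.0921 to 0.0273 for BTG2; and between the controls from -0.0417 to 0.0597 for DDB2. SPATA18 had 0 counts in each of the 9 libraries of 3 groups. In the shallowest of them, 3 counts would correspond to 0.0974 CPM.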
